A study of Mus musculus with 12 samples.

Results

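The hippocampal response of 15-day-old mice to a first injection of lipopolysaccharide (LPS) is described here, from the 3 animals given saline on postnatal day 3 and LPS on day 14 (SL) set against the 3 given saline at both ages (SS). These 6 libraries, chosen by their treatment labels, are 6 of the 12 in the series. Of 54532 listed genes 17687 passed a filter on low values, 0.5 FPKM in 3 or more of the 12 libraries, and were tested. High values in the 3 SL libraries were enough to pass. Some genes near 0 in all other animals, such as Csf3 and Mmp3, were thus tested only because they were high in SL. All pups were C57BL/6J, an inbred laboratory mouse strain, with no engineered allele named. The day-3 injection was subcutaneous and the day-14 injection intraperitoneal, LPS was given at 5 mg/kg, and whole hippocampi were taken 24 h after the second injection for polyA RNA sequencing. The other 6 libraries came from pups given LPS at both ages (LL, n = 3) and from pups given LPS on day 3 and saline on day 14 (LS, n = 3). All 4 groups share both injections, so SS is an injected control. The labels give neither the sex nor the litter of a pup. By their transcripts SL animal 1 and SS animals 2 and 3 were female, with the X-inactivation RNA Xist at 46.9, 40.7 and 44.2 FPKM. SL animals 2 and 3 and SS animal 1 were male, with Y-linked genes summing to 28.7, 34.8 and 34 FPKM, so SL animal 1, often the highest of its group below, was also its only female. With the Y-linked level as a covariate 1216 genes were higher in SL and 633 lower, and the part of sex in the differences among SL animals was not tested.

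LPS is a glycolipid of the outer membrane of Gram-negative bacteria. CD14 passes it to the receptor TLR4 and its partner MD-2, which signal through MyD88 to the transcription factor NF-kB and through TRIF to IRF3, so that cytokine and chemokine genes and type I interferon genes are switched on. In the brain, vessel cells, border macrophages and microglia are known as the first to answer a peripheral dose, and astrocytes answer the cytokines that follow.

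The tissue label was checked against 16 marker genes of hippocampal neurons (among them Prox1 of dentate granule cells and Neurod6 of pyramidal cells). limma called 0 of the 16 different between SL and SS (1 at an unadjusted p under 0.05, and 1 by limma voom), and their summed level was 508 to 557 FPKM in SL and 524 to 584 FPKM in SS. The 9 tested marker genes of thalamus and striatum summed to 30.7 to 37.2 FPKM in SL and 32.9 to 39.7 FPKM in SS. Library depth was 18258513 to 20801651 fragments in SL and 16979666 to 18425733 in SS, so that 1 fragment in a transcript of 1 kb is worth 0.0402 to 0.0587 FPKM over the 12 libraries. The first principal component of all 12 libraries held 37.8% of the variance and set the SL animals apart, at 48.5, 41.4 and 36.2, while the SS animals lay between -22 and -19.9 and no other animal was above -0.47. Choroid plexus transcripts were uneven across the libraries: Ttr, the thyroid hormone carrier made by that epithelium, was at 853, 838 and 605 FPKM in SL and 2455, 2093 and 2299 FPKM in SS, and at 1088, 47.7 and 14.9 FPKM in LS animals 1, 2 and 3. A bulk hippocampus cannot tell fewer cells of a type from less RNA per cell. The p-values here rest on the spread between animals of the same group, pooled over all 4 groups. A wide spread in LS or LL thus raises the SE of SL minus SS. Differences are on the scale of log2(FPKM + 0.5), which understates those of low genes.

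At an adjusted p under 0.05, 1249 genes (7.06% of those tested) rose in SL and 666 (3.77%) fell, while the median log2 difference over all genes tested was -0.0036. The rise was the larger side in size as well as in number. Among genes that rose the median log2 difference was 0.78, and 496 differed at least 2-fold, 197 at least 4-fold and 31 at least 16-fold. Among genes that fell it was 0.45 in size, with 79 at least 2-fold and 8 at least 4-fold lower, and 0 at least 16-fold lower. The 3 SL values and the 3 SS values did not overlap for 1247 of the genes that rose and for all 666 that fell; over all genes tested, 13.8% lay wholly above and 12.5% wholly below. The balance of the calls depended on scaling, since centring each library on its median gave 1091 higher and 1164 lower, and quantile normalization 1138 higher and 992 lower.

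**Figure D1:**
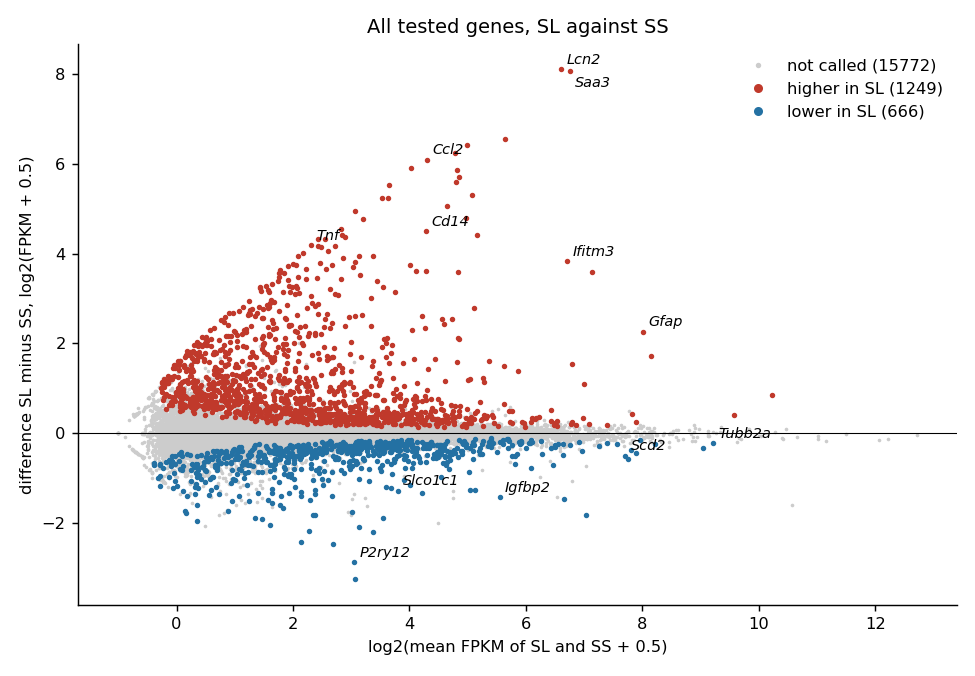
Difference SL minus SS in log2(FPKM + 0.5) (y axis) against log2 of the mean FPKM of SL and SS plus 0.5 (x axis) for the 17687 genes tested, with genes that rose in red and genes that fell in blue. The 1249 genes that rose reach further from 0 than the 666 that fell, with Lcn2 and Saa3 at the top and P2ry12 near the bottom.

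The calls were spread unevenly over named gene lists. All 47 tested interferon-stimulated genes, 31 of 36 reactive astrocyte genes and 15 of 15 acute-phase genes rose, while 0 of 28 synaptic vesicle and scaffold genes and 0 of 21 voltage-gated channel genes were called in either direction. The lists were written with earlier results of these data known, so such shares are descriptions. Every count is of tested members. A member near 0 in SS, LL and LS entered it only where it was high in SL, so the shares that rose lean upward in such lists. For lists named below in which limma called 0 members lower, 0 to 3 members were lower at an unadjusted p under 0.05 and 0 to 1 by limma voom. For lists with 0 members called higher, 0 to 1 were higher at an unadjusted p under 0.05 and 0 to 1 by limma voom.

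**Figure D2:**
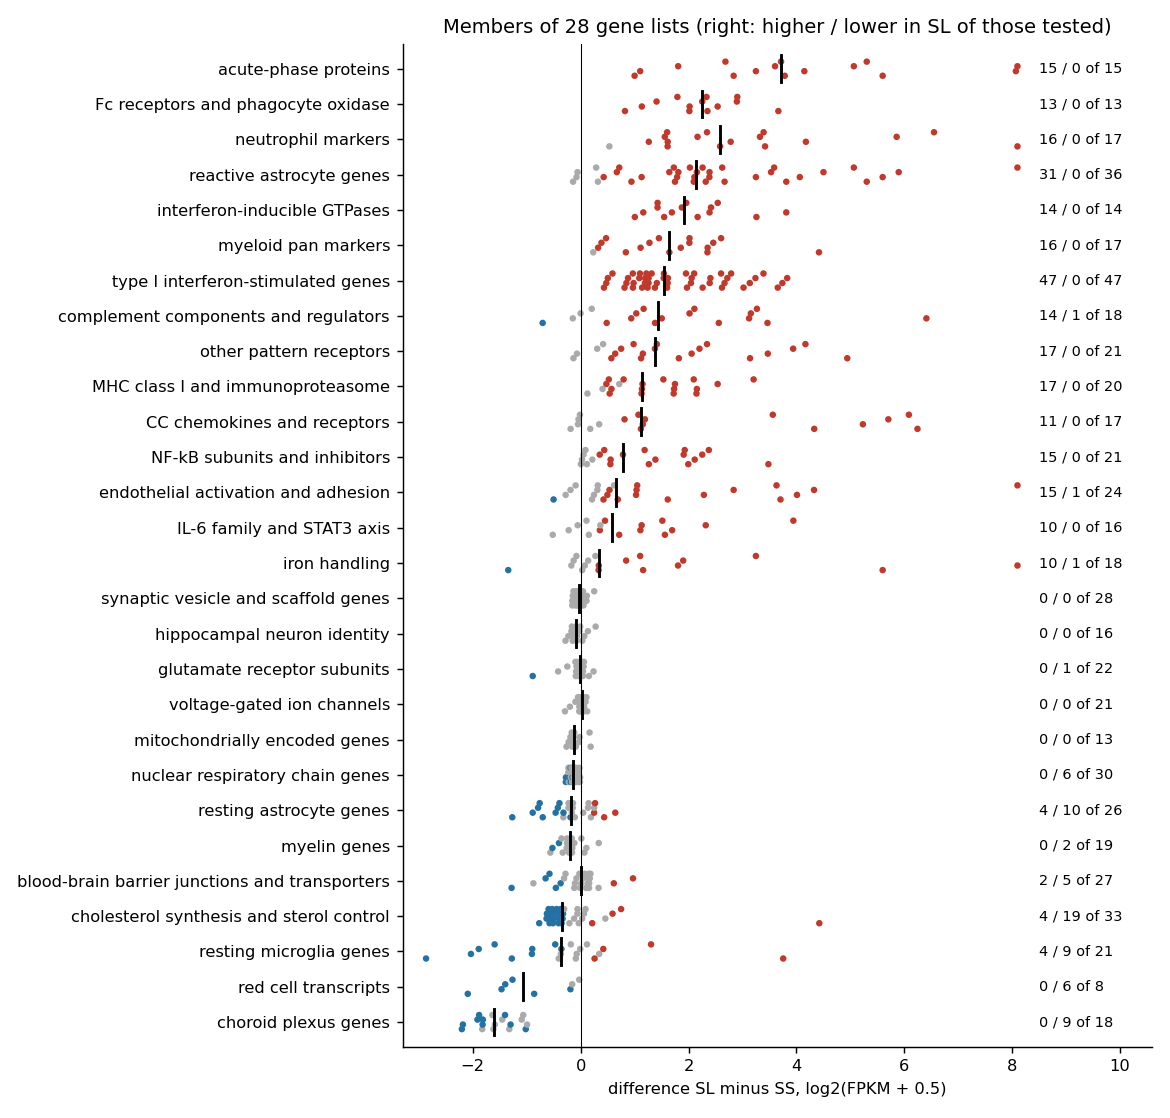
Difference SL minus SS in log2(FPKM + 0.5) (x axis) of each tested member of 28 gene lists, 1 point per gene, red where it rose, blue where it fell and grey where it was not called, with a bar at the list median and the counts higher and lower at the right. Acute-phase, phagocyte and interferon lists lie right of 0, synaptic and channel lists at 0, and sterol, red cell and choroid plexus lists left of 0.

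Of 17 tested members of the LPS receptor and adaptor list, 5 rose and 0 fell (median log2 difference 0.39). Cd14, the co-receptor that hands LPS to TLR4, was at 43.4, 33.9 and 33.1 FPKM in the SL animals, against 1.2, 1.14 and 1.07 FPKM in the SS animals, a log2 difference 4.50, SE 0.13, limma adjusted p = 6.92e-09. Tlr4 itself was low, at 0.679, 0.597 and 0.688 FPKM in the SL animals, against 0.243, 0.209 and 0.273 FPKM in the SS animals, and rose by less (log2 difference 0.64, SE 0.13, limma adjusted p = 0.00944). The SL and SS values of both genes lay apart in every animal. Irak3, the decoy kinase that restrains TLR signalling, rose (log2 difference 2.66, SE 0.19, limma adjusted p = 2.24e-06), as did the adaptor Myd88 (1.45) and the kinase Irak2 (0.56). The MD-2 gene Ly96 (1.34, 1.63 and 0.869 FPKM in SL, against 0.69, 0.794 and 0.955 FPKM in SS) and the TRIF gene Ticam1 (2.62, 3.03 and 2.93 FPKM in SL, against 1.79, 2.4 and 2.53 FPKM in SS) were not called, and the ranges of Ly96 overlapped.

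Among receptors for other microbial products 17 of 21 tested rose and 0 fell, with a median log2 difference of 1.38. Tlr2, the receptor for bacterial lipoproteins, was at 16.7, 16.7 and 14.7 FPKM in the SL animals, against 0.74, 0.288 and 0.772 FPKM in the SS animals (log2 difference 3.94, SE 0.18, limma adjusted p = 9.02e-08). The scavenger receptor Marco was at 20.8, 15.2 and 11 FPKM in the SL animals, against 0.0305, 0 and 0 FPKM in the SS animals, or 1797 and 1 fragments in all, a ratio of 1618 (95% counting interval 290.0 to 6.39e+04). The formyl peptide receptor Fpr1 (4.17) and the scavenger receptor Msr1 (3.47) followed in size, and the C-type lectin Clec4e, absent from the 3 SS libraries, was at least 37.1-fold higher against a floor of 3 fragments per library.

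In the list of NF-kB subunits and inhibitors 15 of 21 tested members rose and 0 fell, with a median log2 difference of 0.78. Nfkbia, which encodes the inhibitor that holds NF-kB in the cytoplasm and is itself an NF-kB target, was at 53.6, 46.1 and 38.1 FPKM in the SL animals, against 9.34, 12 and 9.28 FPKM in the SS animals (log2 difference 2.11, SE 0.12, limma adjusted p = 3.93e-07). Bcl3, a nuclear member of the inhibitor family, was at 7.97, 7.33 and 6.52 FPKM in the SL animals, against 0.261, 0.0936 and 0.241 FPKM in the SS animals (log2 difference 3.48, SE 0.12, limma adjusted p = 2.21e-08). In both genes every SL animal was above every SS animal. The subunit gene Nfkb2 rose by 2.38, the ubiquitin-editing inhibitor Tnfaip3 by 2.0 and the nuclear inhibitor Nfkbiz by 1.93 on the log2 scale. Rela, the gene of the main transactivating subunit, rose by less, 0.55.

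Cytokine genes that are near 0 in the saline hippocampus were among the genes that differed most. Tnf was at 7.86, 9.62 and 9.06 FPKM in the SL animals, against 0, 0 and 0.033 FPKM in the SS animals, or 845 and 1 fragments in all, a ratio of 761 (95% counting interval 136 to 3.01e+04). Its receptors Tnfrsf1a (17.8, 14.8 and 12.9 FPKM in SL, against 5.17, 4.34 and 4.3 FPKM in SS) and Tnfrsf1b (4.43, 4.8 and 3.77 FPKM in SL, against 1.03, 1.17 and 0.95 FPKM in SS) rose by 1.61 and 1.64 on the log2 scale. Of the 19 tested members of the TNF list, 12 rose and 0 fell. Tnfaip2, a TNF-induced gene of endothelium and myeloid cells, rose by 4.36, the apoptosis inhibitor Birc3 by 2.55 and the death receptor Fas by 2.57.

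Interleukin-1 rose together with genes of its inhibitors. Il1b was at 16, 12 and 11.2 FPKM in the SL animals, against 0.185, 0.0304 and 0.0284 FPKM in the SS animals (log2 difference 4.54, SE 0.18, limma adjusted p = 3.53e-08), and each SL animal exceeded each SS animal. The receptor antagonist Il1rn had 561 fragments in the 3 SL libraries and 0 in the 3 SS libraries, so it was at least 55.5-fold higher. The decoy receptor Il1r2 rose by 2.17 and the signalling receptor Il1r1 by 1.61. The inflammasome sensor Nlrp3 was at 2.88, 2.86 and 2.8 FPKM in the SL animals, against 0.376, 0.157 and 0.2 FPKM in the SS animals (log2 difference 2.18, SE 0.12, limma adjusted p = 4.29e-07). In all, 10 of 15 tested members of the interleukin-1 and inflammasome list rose and 0 fell. Il18 was at 14.6, 12.2 and 15.3 FPKM in SL, against 15.5, 17.4 and 15.3 FPKM in SS and was not called.

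In the interleukin-6 and STAT3 list 10 of 16 tested members rose and 0 fell. Il6 had 135 fragments in SL and 0 in SS, at least 13.3-fold higher. Socs3, the STAT3 target that shuts the receptor off, was at 22.7, 17.9 and 16.5 FPKM in the SL animals, against 0.711, 0.761 and 0.805 FPKM in the SS animals (log2 difference 3.94, SE 0.22, limma adjusted p = 3.6e-07), with no overlap between groups. Stat3 (1.56), the oncostatin receptor Osmr (2.32) and the kinase Pim1 (1.70) rose too, while the shared receptor chain Il6st rose by 0.36 and Lifr was at 4.93, 5.12 and 5.23 FPKM in SL, against 4.96, 5.56 and 5.43 FPKM in SS, not called. Among other SOCS and JAK regulators, Usp18, a brake on interferon receptors, rose by 2.67 and the phosphatase Ptpn6 by 2.24, and Socs2, Socs4, Socs5, Socs6 and Socs7 were not called.

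Of 18 tested members of a list of other cytokines and receptors 12 rose and 0 fell. Csf3, the granulocyte growth factor, had 679 fragments in SL and 0 in SS and was at least 66.4-fold higher. Il19 was at 7.51, 2.84 and 1.01 FPKM in the SL animals, against 0, 0.0504 and 0 FPKM in the SS animals, a ratio of 240.4 (95% counting interval 42.8 to 9528). The SL animals were unequal, with animal 1 the highest. Il12b was at least 12-fold higher and Csf1, the growth factor of microglia, rose by 1.45. Il10 had 13 fragments in SL and 0 in SS, and Ifng had 0 in both, which sets its limit at the 3 fragments that a count of 0 allows.

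Of 17 tested CC chemokines and receptors (27 listed) 11 rose and 0 fell, and of 14 tested CXC and CX3C genes (21 listed) 9 rose and 1 fell. Ccl2, the main attractant of monocytes, was at 53, 34 and 27.7 FPKM in the SL animals, against 0.103, 0.0509 and 0 FPKM in the SS animals, with 2592 and 3 fragments and a ratio of 778 (95% counting interval 266 to 3774). Ccl3 was at 64, 58.1 and 39.7 FPKM in the SL animals, against 0.46, 0.227 and 0 FPKM in the SS animals (log2 difference 6.24, SE 0.30, limma adjusted p = 1.41e-07). Ccl12 was at 55.6, 51 and 62.4 FPKM in the SL animals, against 0.437, 0.863 and 0.504 FPKM in the SS animals (log2 difference 5.70, SE 0.29, limma adjusted p = 1.7e-07). For all 3 genes the SL values were far above the SS values in each animal. Ccl4 rose by 5.23, and Ccl7 and Ccl5, with 1 SS fragment each, had ratios of 462 (95% counting interval 82.5 to 1.83e+04) and 295 (95% counting interval 52.6 to 1.17e+04).

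Cxcl10, the interferon-induced attractant of T cells, was at 31.3, 36.7 and 26.7 FPKM in the SL animals, against 0.0521, 0.0514 and 0 FPKM in the SS animals (log2 difference 5.90, SE 0.17, limma adjusted p = 6.92e-09), with all SL animals far above all SS animals. The neutrophil attractants Cxcl1 (27, 13.7 and 11.1 FPKM in SL, against 0.0939, 0.0927 and 0.144 FPKM in SS; log2 difference 4.76, SE 0.26, limma adjusted p = 3.28e-07) and Cxcl5 (12.1, 8.27 and 3.81 FPKM in SL, against 0.221, 0.218 and 0.232 FPKM in SS; log2 difference 3.43, SE 0.31, limma adjusted p = 1.57e-05) rose with wider spread, SL animal 1 being the highest for both. Cxcl12, the homeostatic chemokine of vessels and developing dentate gyrus, was the one member that fell, at 6.46, 5.66 and 5.9 FPKM in the SL animals, against 10.1, 8.55 and 9.42 FPKM in the SS animals (log2 difference -0.60, SE 0.076, limma adjusted p = 0.000268). The fractalkine gene Cx3cl1 was at 128, 167 and 165 FPKM in SL, against 152, 158 and 144 FPKM in SS and was not called.

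Interferon-stimulated genes rose as a block. All 47 tested members were called higher (44 to 47 with any 1 library left out), with a median log2 difference of 1.54. Isg15, a ubiquitin-like modifier, was at 15.2, 23.3 and 19.9 FPKM in the SL animals, against 1.79, 0.996 and 1.43 FPKM in the SS animals (log2 difference 3.39, SE 0.21, limma adjusted p = 6.95e-07). Ifit1, which binds foreign RNA, was at 5.43, 8.53 and 7.22 FPKM in the SL animals, against 0.287, 0.218 and 0.367 FPKM in the SS animals (log2 difference 3.24, SE 0.18, limma adjusted p = 3.6e-07). Ifitm3, a membrane protein that blocks virus entry, was at 245, 189 and 151 FPKM in the SL animals, against 12.9, 11.7 and 14.5 FPKM in the SS animals (log2 difference 3.83, SE 0.19, limma adjusted p = 1.45e-07). SL animal 2 was the highest for Isg15 and Ifit1 and SL animal 1 for Ifitm3, and all SL values lay above all SS values.

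The interferon genes listed were scarcely detected, and other interferon genes were not looked at. Ifnb1 had 1 fragment, in SL animal 2, and 0 in SS, and Ifna4, Ifnl3 and Ifng had 0 in all 6 libraries. Of the 4 tested interferon receptor genes Ifngr1 rose (0.61) and the other 3 were not called. The transcription factors that carry the signal rose in 14 of 16 cases with 0 lower. Irf7 was at 5.96, 6.77 and 4.92 FPKM in the SL animals, against 0.233, 0.215 and 0.215 FPKM in the SS animals (log2 difference 3.14, SE 0.17, limma adjusted p = 3.01e-07). Irf9 rose by 1.09 and Stat2 by 0.67. Irf3, the factor activated by phosphorylation downstream of TRIF, was at 8.28, 7.62 and 8.34 FPKM in SL, against 7.1, 7.39 and 8.02 FPKM in SS and was not called.

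All 14 tested interferon-inducible GTPases rose, with a median log2 difference of 1.92. Gbp2 was at 18.9, 15.9 and 10.7 FPKM in the SL animals, against 0.747, 0.437 and 0.603 FPKM in the SS animals (log2 difference 3.81, SE 0.20, limma adjusted p = 2.94e-07), Gbp5 rose by 3.26 and Irgm1 by 1.88, and none of these 3 overlapped between groups. Of 20 tested MHC class I and immunoproteasome genes 17 rose and 0 fell. H2-K1, a classical class I chain, was at 52.9, 44.1 and 37.8 FPKM in the SL animals, against 7.54, 6.57 and 7.66 FPKM in the SS animals (log2 difference 2.54, SE 0.12, limma adjusted p = 1.41e-07). Its partner B2m was at 179.6, 156 and 153 FPKM in the SL animals, against 53, 61 and 54 FPKM in the SS animals (log2 difference 1.53, SE 0.078, limma adjusted p = 1.86e-07). The immunoproteasome subunit Psmb8 rose by 2.15. Of 9 tested class II presentation genes 3 rose and 0 fell. The invariant chain Cd74 was at 7.73, 4.08 and 4.52 FPKM in the SL animals, against 1.33, 0.657 and 1.38 FPKM in the SS animals (log2 difference 1.86, SE 0.24, limma adjusted p = 0.000268), with SL animal 1 the highest. H2-Ab1 was at 2.42, 0.887 and 1.08 FPKM in SL, against 0.395, 0.672 and 0.695 FPKM in SS and was not called. Guanylate-binding protein, class I and Oas genes have near-identical relatives, and how reads that match several genes were counted is not given, so the split between relatives is uncertain.

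The start regions of some of these genes are shown because Nfkbia, Isg15, Socs3 and Hmgcs1 are known targets of NF-kB, interferon, STAT3 and SREBP signalling that were called here, Cxcl10 is one of both NF-kB and interferon, and Lcn2 differed most. Each is the 250 bases upstream of the transcription start in RefSeq on GRCm38.p6, 5′ to 3′ on the gene's strand, with matches in capitals. The motifs, searched on both strands, were an NF-kB consensus, the interferon-stimulated response element (ISRE, GAAA, any 2 bases and GAAA again), the gamma-activated STAT site (GAS, TTCNNNGAA) and a sterol regulatory element (SRE, TCACNCCAC), and no match printed here overlapped one of another motif.
Nfkbia: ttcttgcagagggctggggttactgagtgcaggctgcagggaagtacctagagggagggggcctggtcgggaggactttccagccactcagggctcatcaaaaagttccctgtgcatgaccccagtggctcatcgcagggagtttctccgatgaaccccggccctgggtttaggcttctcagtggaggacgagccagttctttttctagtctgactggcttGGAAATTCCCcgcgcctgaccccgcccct
Cxcl10: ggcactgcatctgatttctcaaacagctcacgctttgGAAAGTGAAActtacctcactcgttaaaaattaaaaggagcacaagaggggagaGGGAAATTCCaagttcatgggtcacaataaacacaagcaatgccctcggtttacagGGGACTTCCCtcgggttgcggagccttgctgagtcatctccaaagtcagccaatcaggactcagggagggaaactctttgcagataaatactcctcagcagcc
Isg15: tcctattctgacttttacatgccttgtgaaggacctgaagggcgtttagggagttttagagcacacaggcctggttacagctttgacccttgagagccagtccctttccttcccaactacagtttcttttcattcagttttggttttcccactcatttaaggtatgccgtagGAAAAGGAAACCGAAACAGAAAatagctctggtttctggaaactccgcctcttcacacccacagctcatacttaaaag
Socs3: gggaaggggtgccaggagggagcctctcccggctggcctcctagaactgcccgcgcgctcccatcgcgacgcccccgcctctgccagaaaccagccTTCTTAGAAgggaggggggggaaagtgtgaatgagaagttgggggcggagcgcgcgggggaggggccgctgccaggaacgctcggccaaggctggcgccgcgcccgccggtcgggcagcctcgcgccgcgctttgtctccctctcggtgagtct
Hmgcs1: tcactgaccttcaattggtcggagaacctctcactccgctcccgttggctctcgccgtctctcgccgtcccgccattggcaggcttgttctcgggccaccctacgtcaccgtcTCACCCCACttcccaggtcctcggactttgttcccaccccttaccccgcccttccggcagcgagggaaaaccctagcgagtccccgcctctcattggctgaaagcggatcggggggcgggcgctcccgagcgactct
Lcn2: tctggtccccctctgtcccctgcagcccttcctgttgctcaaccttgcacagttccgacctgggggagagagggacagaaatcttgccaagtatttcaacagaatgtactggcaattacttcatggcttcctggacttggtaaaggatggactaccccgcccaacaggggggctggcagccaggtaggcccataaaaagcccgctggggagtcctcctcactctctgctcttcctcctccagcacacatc
The Nfkbia window (chr12:55492648-55492897, minus strand) holds 1 NF-kB match, 29 to 20 bases before the start. The Cxcl10 window (chr5:92348890-92349139, minus strand) holds 2 NF-kB matches, 159 to 150 and 103 to 94 bases before the start, and 1 ISRE match at 213 to 204. In Isg15 (chr4:156200819-156201068, minus strand) 3 overlapping ISRE matches span 78 to 57 bases before the start. Socs3 (chr11:117969367-117969616, minus strand) has 1 GAS match at 154 to 146, Hmgcs1 (chr13:119690101-119690350, plus strand) 1 SRE match at 137 to 129, and the Lcn2 window (chr2:32387740-32387989, minus strand) has no match to the 4 motifs. The windows of Tnf, Irf7, Idi1 and Insig1, also called here and also known targets of these pathways, were searched in the same way and hold no match either. In the annotation used for the FPKM values, Lcn2 extends to chr2:32388252 and Socs3 to chr11:117970047. Both windows thus lie inside the annotated genes, and the bases upstream of those ends were not searched.

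Over all 32851 promoters, of 27025 genes, 3.9% held an NF-kB match, 2.98% an ISRE match, 7.02% a GAS match and 1.05% an SRE match. Among 1183 promoters of 946 genes that rose, the shares were 9.38%, 5.66%, 8.88% and 1.52%, and among 614 promoters of 488 genes that fell they were 4.72%, 1.63%, 4.89% and 0.651%. Among 13035 promoters of genes tested and not called they were 4.4%, 2.29%, 5.62% and 0.967%. Within lists, 14 of 46 promoters of interferon-stimulated genes held an ISRE match, 11 of 25 promoters of the NF-kB list an NF-kB match, 6 of 22 of the acute-phase list a GAS match and 1 of 31 of the sterol list an SRE match. Such matches describe letters in a window of one length and show no binding.

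Acute-phase genes, best known from liver, had the highest median difference of the 73 lists, 3.72 on the log2 scale (3.78 with the genes absent from SS set at their lower bounds). Of 25 listed members 15 were tested, and all 15 rose. Some of them, such as Orm1 and Orm2, passed the filter only through the SL animals, so this count and median were partly set by the filter. Lcn2 (chr2:32384633-32388252 in mm10), an iron-siderophore carrier of neutrophils, endothelium and astrocytes, was at 283, 165 and 129.8 FPKM in the SL animals, against 0.403, 0.0663 and 0.0826 FPKM in the SS animals (log2 difference 8.10, SE 0.47, limma adjusted p = 4.81e-07). Saa3 (chr7:46711998-46715700), an inducible serum amyloid of macrophages and other cells outside the liver, was at 254, 223 and 167 FPKM in the SL animals, against 0.586, 0.0889 and 0.27 FPKM in the SS animals (log2 difference 8.07, SE 0.38, limma adjusted p = 1.19e-07). In both genes SL animal 1 was the highest of the 3 and animal 3 the lowest, and every SL animal was far above every SS animal. The pentraxin Ptx3 rose by 5.30, the ferrireductase Steap4 by 5.60, haptoglobin (Hp) by 3.78 and ceruloplasmin (Cp) by 3.25, and Orm1, absent from SS, was at least 29.7-fold higher. The liver-restricted genes Fga, Fgb, Fgg, Apcs and Ahsg were near 0 in the 6 libraries and were not tested, with Fgg at 0.0901, 0.0248 and 0.106 FPKM in SL and 0, 0.083 and 0 FPKM in SS. Saa, Orm and Serpina3 genes have close copies, so that values of single members are uncertain.

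All 5 tested Serpina3 genes rose, led in level by Serpina3n, a protease inhibitor of reactive astrocytes, at 359.7, 240.1 and 183 FPKM in the SL animals, against 20.5, 22.1 and 18.8 FPKM in the SS animals (log2 difference 3.59, SE 0.19, limma adjusted p = 2.59e-07). Of 18 tested complement genes 14 rose and 1 fell. C3, the central component, was at 66.8, 77.3 and 41.5 FPKM in the SL animals, against 0.205, 0.225 and 0.2 FPKM in the SS animals (log2 difference 6.41, SE 0.28, limma adjusted p = 6.71e-08). C4b was at 27.3, 22.9 and 21.2 FPKM in the SL animals, against 2.3, 2.23 and 2.12 FPKM in the SS animals (log2 difference 3.15, SE 0.13, limma adjusted p = 4.93e-08). The microglial component C1qa was at 67.8, 89.5 and 95.1 FPKM in the SL animals, against 32.8, 32.2 and 30.2 FPKM in the SS animals (log2 difference 1.38, SE 0.13, limma adjusted p = 2.34e-05). All 3 were higher in every SL animal, C3 with the widest margin. Receptors rose as well, C5ar1 by 3.27 and C3ar1 by 2.56. Cd59a, which blocks the membrane attack complex, was at 1.85, 1.72 and 1.84 FPKM in the SL animals, against 3.05, 3.36 and 3.35 FPKM in the SS animals and fell (log2 difference -0.70, SE 0.12, limma adjusted p = 0.00288).

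Astrocyte genes split by state. Of 36 tested reactive astrocyte genes 31 rose and 0 fell, with a median log2 difference of 2.13. Gfap, the intermediate filament that defines reactive astrocytes, was at 542, 382 and 357 FPKM in the SL animals, against 88.8, 87.9 and 85 FPKM in the SS animals (log2 difference 2.26, SE 0.13, limma adjusted p = 4.06e-07). Vim, a second filament gene, rose by 1.64, the hyaluronan receptor Cd44 by 2.62, the sphingosine phosphate receptor S1pr3 by 2.39 and Aspg, an asparaginase, by 3.53. SL animal 1 had the highest Gfap, Vim, Cd44 and S1pr3 of the 3.

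Of 26 tested genes of resting astrocytes 10 fell and 4 rose (2 rose without SS animal 3). Fabp7, a brain fatty acid-binding protein of radial glia and young astrocytes, was at 21, 15.8 and 24 FPKM in the SL animals, against 50.1, 47.3 and 49.2 FPKM in the SS animals (log2 difference -1.27, SE 0.15, limma adjusted p = 0.000167). The phagocytic bridge protein Mfge8 was at 14, 19.4 and 21.9 FPKM in the SL animals, against 31.9, 30.8 and 32.4 FPKM in the SS animals (log2 difference -0.79, SE 0.13, limma adjusted p = 0.00145). The potassium channel gene Kcnj10 was at 15.6, 18.4 and 20.8 FPKM in the SL animals, against 30.3, 28.7 and 30.7 FPKM in the SS animals (log2 difference -0.70, SE 0.087, limma adjusted p = 0.000207). Each SL animal was below each SS animal for all 3. The gap junction gene Gja1 differed by -0.46 and the GABA transporter gene Slc6a11 by -0.39 on the log2 scale, both lower in SL. Aqp4, the water channel of astrocyte endfeet, went the other way (log2 difference 0.64, SE 0.12, limma adjusted p = 0.00435), and the glutamate transporter Slc1a2 and glutamine synthetase (Glul) were not called. Outside the lists, and picked after their values were seen, the amino acid carriers Slc7a10 (-1.16) and Slc38a3 (-1.20) and the endothelin receptor Ednrb (-1.04) fell.

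Vessel genes of leukocyte capture rose. In the endothelial activation list 15 of 24 tested members rose and 1 fell. E-selectin (Sele) was at 11.4, 8.92 and 8.81 FPKM in the SL animals, against 0, 0 and 0.0186 FPKM in the SS animals, a ratio of 1503 (95% counting interval 269 to 5.94e+04), and P-selectin (Selp) had a ratio of 457 (95% counting interval 156 to 2218). Icam1, the ligand of leukocyte integrins, was at 18.2, 13.2 and 12.7 FPKM in the SL animals, against 0.862, 0.624 and 0.497 FPKM in the SS animals (log2 difference 3.70, SE 0.18, limma adjusted p = 1.26e-07). Vcam1 was at 11.9, 10.1 and 9.6 FPKM in the SL animals, against 5.12, 4.8 and 4.76 FPKM in the SS animals (log2 difference 1.03, SE 0.096, limma adjusted p = 2.23e-05). All SL animals were above all SS animals for Icam1, Vcam1 and both selectins. Jam2, a junction molecule, was the member that fell (-0.50).

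Of 27 tested genes of blood-brain barrier junctions and transporters 2 rose and 5 fell. Slco1c1, which carries thyroxine across brain capillaries, was at 6.04, 7.62 and 9.36 FPKM in the SL animals, against 20.6, 18.8 and 17.9 FPKM in the SS animals (log2 difference -1.28, SE 0.12, limma adjusted p = 2.18e-05). Mfsd2a, the lysolipid transporter that restrains transcytosis, was at 9.43, 10.1 and 9.98 FPKM in the SL animals, against 15.9, 15 and 16.3 FPKM in the SS animals (log2 difference -0.65, SE 0.057, limma adjusted p = 1.27e-05). The amino acid carrier Slc7a5 (-0.46) and the efflux pump Abcb1a (-0.37) fell as well. The glucose transporter Slc2a1 rose (log2 difference 0.61, SE 0.05, limma adjusted p = 7.08e-06). Claudin-5 (Cldn5), the main tight junction strand protein of brain capillaries, was at 48.2, 34.5 and 43.8 FPKM in SL, against 38.1, 35.8 and 38.4 FPKM in SS and was not called (log2 difference 0.16, SE 0.11, limma adjusted p = 0.471), nor were Tjp1, Cdh5 and Ocln. Among coagulation genes 7 of 17 rose and 0 fell. Picked after their values were seen, Apln was at 1.24, 2.34 and 2.82 FPKM in the SL animals, against 7.42, 6.27 and 6.31 FPKM in the SS animals (log2 difference -1.49, SE 0.19, limma adjusted p = 0.000249), and its receptor gene Aplnr (-1.37) and the vascular growth factor receptor gene Kdr (-0.79) fell too.

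Transcripts known from blood neutrophils rose, 16 of 17 tested (22 listed) and 0 lower. The summed level of the list was 569, 350.4 and 271 FPKM in SL animals 1, 2 and 3, against 3.69 to 5.07 FPKM in SS. Lcn2 makes up part of that sum and is also made by brain cells. S100a9 was at 135, 90.5 and 67.5 FPKM in the SL animals, against 0.562, 0.222 and 0.83 FPKM in the SS animals (log2 difference 6.55, SE 0.32, limma adjusted p = 1.4e-07). S100a8 was at 79.4, 49.8 and 35.9 FPKM in the SL animals, against 0.508, 0.334 and 0.39 FPKM in the SS animals (log2 difference 5.86, SE 0.23, limma adjusted p = 4.5e-08). Cxcr2, the receptor for Cxcl1, was at least 19.2-fold higher and the collagenase Mmp8 at least 36.2-fold higher. SL animal 1 was the highest for all 4 genes. The granule protein gene Ngp was at 8.65, 2.72 and 2.99 FPKM in the SL animals, against 0.336, 0.142 and 0.0886 FPKM in the SS animals (log2 difference 2.78, SE 0.33, limma adjusted p = 0.000167). Camp, a granule antimicrobial peptide, had 39 fragments in SL and 3 in SS, and Mmp8 367 and 0. Other markers of the list were scarce in both groups: Ly6g had 4 fragments in SL and 1 in SS, Elane 0 in both, and Mpo was at 0.0689, 0.136 and 0.113 FPKM in SL, against 0.189, 0.0338 and 0.111 FPKM in SS. Neutrophil transcripts moved with the chemokine, acute-phase and adhesion lists, and their part in those results was not tested. Lists also share members, so their counts are not independent: Lcn2 is in the neutrophil, acute-phase, reactive astrocyte, endothelial activation and iron lists.

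Monocyte markers were fewer, 5 of 9 tested higher and 0 lower. Ms4a6c was at 8.77, 6.43 and 5.89 FPKM in the SL animals, against 0.172, 0.198 and 0.449 FPKM in the SS animals (log2 difference 3.28, SE 0.16, limma adjusted p = 1.69e-07). Ccr2, which defines inflammatory monocytes, was at 0.0907, 0.0844 and 0.107 FPKM in SL and 0.0261, 0.0514 and 0.00801 FPKM in SS and was not tested. The list summed to 54.5, 70.5 and 65.5 FPKM in SL animals 1, 2 and 3 and to 35 to 42.2 FPKM in SS. Of 7 tested lymphocyte list members only Ptprc, which all leukocytes and microglia express, rose (1.28). The T cell genes Cd3g and Cd8b1 had 0 fragments in the 6 libraries, and Cd3e was at 0, 0.0127 and 0.0136 FPKM in SL and 0.0144, 0 and 0.0265 FPKM in SS.

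Microglial genes also split by state. P2ry12 (chr3:59216272-59262871 in mm10), the ADP receptor by which resting microglia steer their processes, showed the largest fall among protein-coding genes with at least 1 FPKM. It was at 1.13, 1.53 and 1.87 FPKM in the SL animals, against 14.6, 13.9 and 13.5 FPKM in the SS animals (log2 difference -2.87, SE 0.13, limma adjusted p = 1.19e-07). The sensing receptors Gpr34 (0.587, 0.546 and 1.01 FPKM in SL, against 4.69, 4.32 and 4.2 FPKM in SS; log2 difference -2.03, SE 0.19, limma adjusted p = 2.25e-05) and Siglech (0.404, 0.583 and 0.803 FPKM in SL, against 3.58, 3.3 and 3.68 FPKM in SS; log2 difference -1.89, SE 0.16, limma adjusted p = 8.53e-06) fell too, as did P2ry13 (log2 difference -1.59, SE 0.10, limma adjusted p = 1.31e-06). None of these 4 genes overlapped between groups. Of 21 tested genes of resting microglia 9 fell and 4 rose (2 rose without SS animal 3). Trem2 fell (-0.90), and Tmem119 (4.67, 6.25 and 7.3 FPKM in SL, against 8.12, 8.23 and 7.93 FPKM in SS) was not called. The member of the list that rose most was Gpr84, a medium-chain fatty acid receptor known from activated microglia, which was at 11.3, 12.4 and 10.4 FPKM in the SL animals, against 0.272, 0.403 and 0.471 FPKM in the SS animals (log2 difference 3.76, SE 0.21, limma adjusted p = 4.27e-07).

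Genes of phagocytes rose. All 13 tested Fc receptor and phagocyte oxidase genes were higher, with a median log2 difference of 2.25, and 16 of 17 tested general myeloid genes rose with 0 lower. Lyz2, the lysozyme of macrophages and neutrophils, was at 75.9, 66.1 and 62.6 FPKM in the SL animals, against 3.08, 2.51 and 2.55 FPKM in the SS animals (log2 difference 4.42, SE 0.11, limma adjusted p = 3.09e-09). Cybb, the catalytic oxidase subunit, was at 9.48, 8.04 and 6.81 FPKM in the SL animals, against 0.192, 0.17 and 0.158 FPKM in the SS animals (log2 difference 3.67, SE 0.13, limma adjusted p = 2.78e-08). Adgre1, which encodes F4/80, was at 13.9, 14.2 and 13.6 FPKM in the SL animals, against 1.9, 1.54 and 2.22 FPKM in the SS animals (log2 difference 2.60, SE 0.11, limma adjusted p = 4.9e-08). The SL animals lay far above the SS animals for these 3 genes. Aif1, the IBA1 gene, rose by 1.64. In the damage-associated microglia list 12 of 22 tested genes rose and 2 fell, Fabp5 and Lpl. The 2 lower calls became 0 without SS animal 1, SS animal 2 or SL animal 2 and 1 without SL animal 3. Apoe was at 831, 768 and 746 FPKM in SL, against 817, 857 and 844 FPKM in SS, not called. Of 26 lysosome genes 10 rose and 0 fell, led by the cathepsins Ctsc (1.76), Ctsz (1.6) and Ctss (1.21).

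Border macrophage markers went both ways, 3 higher and 3 lower of 10 tested (1 lower without SS animal 1 or SS animal 3). Siglec1 rose (log2 difference 1.73, SE 0.15, limma adjusted p = 1.13e-05). The mannose receptor Mrc1 was at 0.244, 0.285 and 0.539 FPKM in the SL animals, against 1.18, 0.891 and 1.51 FPKM in the SS animals and fell (log2 difference -0.98, SE 0.18, limma adjusted p = 0.00446).

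Acod1, which makes itaconate in activated macrophages, was at 24.8, 26.6 and 21 FPKM in the SL animals, against 0.0672, 0.0221 and 0 FPKM in the SS animals (log2 difference 5.53, SE 0.17, limma adjusted p = 6.92e-09). Nos2 was low, at 1.41, 0.929 and 0.867 FPKM in the SL animals, against 0.226, 0.276 and 0.147 FPKM in the SS animals, and rose (log2 difference 1.12, SE 0.16, limma adjusted p = 0.000772). Ptges, the inducible prostaglandin E synthase of brain vessels, was at 12.9, 8.11 and 5.6 FPKM in the SL animals, against 0.971, 0.914 and 0.84 FPKM in the SS animals (log2 difference 2.66, SE 0.21, limma adjusted p = 6.64e-06). Every SL animal was above every SS animal for these 3 genes. Ptgs2 rose (0.94) and Ptgs1 fell (-0.55), and of 17 tested prostaglandin and leukotriene genes 5 rose and 3 fell (5 fell without SS animal 2). The kynurenine enzyme genes Ido1 (0.103, 0.0284 and 0.0607 FPKM in SL, against 0.129, 0 and 0.0297 FPKM in SS) and Kmo (0.0599, 0.0439 and 0.0821 FPKM in SL, against 0.087, 0.0491 and 0.126 FPKM in SS) were not tested.

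Of 9 tested metallothionein and zinc transporter genes 5 rose and 1 fell. The metallothionein Mt2 was at 52.7, 36.9 and 31.9 FPKM in the SL animals, against 8.49, 7.29 and 5.25 FPKM in the SS animals (log2 difference 2.44, SE 0.24, limma adjusted p = 3.37e-05). Mt1 was at 588, 398 and 319 FPKM in the SL animals, against 108, 162 and 118 FPKM in the SS animals (log2 difference 1.72, SE 0.20, limma adjusted p = 0.000111). Of 18 tested iron genes 10 rose and 1 fell. The storage chain Fth1 was at 1799, 1461 and 1375 FPKM in the SL animals, against 799, 981 and 798 FPKM in the SS animals (log2 difference 0.84, SE 0.11, limma adjusted p = 0.000227). Hmox1, which frees iron from haem, rose by 1.90. The iron exporter Slc40a1 was at 0.456, 0.288 and 0.585 FPKM in the SL animals, against 2.15, 1.72 and 1.77 FPKM in the SS animals and fell (log2 difference -1.34, SE 0.13, limma adjusted p = 2.3e-05). Each SL animal lay outside the SS range for these genes. Of 19 tested antioxidant genes 7 rose and 1 fell, with a median log2 difference of 0.093, and glutathione peroxidase 3 (Gpx3) rose by 3.58. Of 23 tested glycolysis genes 6 rose and 0 fell, with a median of -0.011, and the glycolytic regulator Pfkfb3 rose by 0.86.

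Glucocorticoid target genes rose in 11 of 20 cases and fell in 2. Fkbp5, the chaperone by which the receptor limits itself, was at 12, 11.7 and 11.3 FPKM in the SL animals, against 5.59, 7.05 and 6.27 FPKM in the SS animals (log2 difference 0.84, SE 0.08, limma adjusted p = 2.52e-05). The receptor genes Nr3c1 and Nr3c2 were the 2 that fell (-0.31 and -0.31). Several members, Nfkbia among them, also answer to NF-kB. Of 21 tested cell death genes 11 rose and 0 fell, with the pore-forming gasdermin Gsdmd (1.17), the necroptosis effector Mlkl (0.92) and the survival factor Mcl1 (0.53) among them.

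Genes of sterol synthesis fell together. Of 33 tested genes of cholesterol synthesis and sterol control 19 fell and 4 rose (2 rose without SS animal 1 or SS animal 3), with a median log2 difference of -0.35. Hmgcs1, the synthase at the entry of the mevalonate pathway whose start region with its SRE match is printed above, was at 46.4, 54 and 49.4 FPKM in the SL animals, against 87.2, 89.4 and 79.3 FPKM in the SS animals (log2 difference -0.77, SE 0.071, limma adjusted p = 1.99e-05). Insig1, a sterol sensor and target of SREBP, was at 14.1, 14.1 and 12.9 FPKM in the SL animals, against 22, 21.5 and 20.8 FPKM in the SS animals (log2 difference -0.63, SE 0.067, limma adjusted p = 6.16e-05). The late-step enzyme gene Nsdhl was at 6.18, 6.34 and 6.02 FPKM in the SL animals, against 10.1, 10.7 and 8.77 FPKM in the SS animals (log2 difference -0.63, SE 0.071, limma adjusted p = 0.000109). The SL values were below the SS values without overlap for all 3. The epoxidase gene Sqle (-0.51) was lower by less than 2-fold.

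Of the members that rose, Ch25h, which makes 25-hydroxycholesterol in activated myeloid cells, was at 14.3, 14.2 and 11.2 FPKM in the SL animals, against 0.261, 0.0429 and 0.12 FPKM in the SS animals (log2 difference 4.42, SE 0.16, limma adjusted p = 2.78e-08), and the exporter Abca1 rose by 0.59. Of 18 tested lipid genes 9 fell and 3 rose. The desaturase gene Scd2 was at 155, 189 and 172 FPKM in the SL animals, against 252, 235 and 243 FPKM in the SS animals (log2 difference -0.50, SE 0.073, limma adjusted p = 0.000779). Scd1 (-0.66), Fads1 (-0.50) and Fads2 (-0.47) fell too. The lipase inhibitor Angptl4 rose by 2.65 and the droplet coat gene Plin2 by 1.15.

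Of 19 tested myelin genes 0 rose and 2 fell, and the 2 became 0 without SS animal 1, SS animal 2, SL animal 1 or SL animal 3. Mbp was at 291, 357 and 247 FPKM in the SL animals, against 349.5, 322 and 319 FPKM in the SS animals and was not called. Of 19 genes of precursors and premyelinating cells 3 fell. Gpr17, the receptor that marks the premyelinating stage, was at 18.8, 24.3 and 24.9 FPKM in the SL animals, against 42.1, 40.3 and 41 FPKM in the SS animals (log2 difference -0.86, SE 0.092, limma adjusted p = 7.27e-05). Bmp4 (-0.65) and Ptprz1 (-0.34) fell as well. The SL and SS ranges of Gpr17 were far apart.

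Of 28 tested synaptic vesicle and scaffold genes limma called 0 (2 lower at an unadjusted p under 0.05, and 0 by limma voom), and 1 fell without LS animal 1. Of 21 tested voltage-gated channel genes it also called 0 (1 at an unadjusted p under 0.05, and 0 by limma voom). Among 22 glutamate receptor subunits Grin2c, which astrocytes also express, fell (2.9, 5.19 and 6.17 FPKM in SL, against 9.07, 8.18 and 9.37 FPKM in SS; log2 difference -0.89, SE 0.20, limma adjusted p = 0.0125). Dcx, of immature neurons, was at 8.65, 5.46 and 6.76 FPKM in the SL animals, against 9.11, 9.55 and 8.81 FPKM in the SS animals and was not called. Tubb3, a tubulin gene of young neurons, was at 139, 193 and 189 FPKM in the SL animals, against 253, 254 and 256 FPKM in the SS animals (log2 difference -0.56, SE 0.11, limma adjusted p = 0.00541). The related Tubb2b fell (-0.36), and SL animal 1 had the lowest Tubb3 of all 6 animals. Bdnf was at 7.87, 7.93 and 8.3 FPKM in the SL animals, against 9.67, 10.1 and 9.44 FPKM in the SS animals and fell (log2 difference -0.26, SE 0.067, limma adjusted p = 0.0263), a call lost without SS animal 1, SS animal 2, SL animal 1 or SL animal 2.

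Immediate early genes rose in 9 of 25 cases and fell in 1, Bdnf. The 9 became 13 without SL animal 1. Fos was at 9.59, 11.2 and 12.5 FPKM in the SL animals, against 4.32, 3.55 and 3.82 FPKM in the SS animals (log2 difference 1.40, SE 0.16, limma adjusted p = 0.000118). Junb was at 41.5, 48.5 and 43.1 FPKM in the SL animals, against 19.6, 17.7 and 19.9 FPKM in the SS animals (log2 difference 1.20, SE 0.13, limma adjusted p = 9.19e-05). Ier3, a stress gene under NF-kB, was at 45.1, 33.1 and 28.7 FPKM in the SL animals, against 3.17, 2.15 and 2.06 FPKM in the SS animals (log2 difference 3.6, SE 0.20, limma adjusted p = 3.27e-07). These genes lay above SS in each SL animal. Arc, which marks recent synaptic activity, was at 22, 45.3 and 47.5 FPKM in the SL animals, against 29.7, 25.1 and 24.7 FPKM in the SS animals and was not called, with SL animal 1 below all SS animals and the other SL animals above them. Among growth factors Fgf2 rose (log2 difference 2.24, SE 0.17, limma adjusted p = 4.05e-06) and Fgf1 fell (-0.55).

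Choroid plexus transcripts were lower in SL, by a median log2 difference of -1.6 over 18 tested genes, and 9 of them were called lower. The count was 18 when LS animal 1 was left out and 18 when the SL and SS libraries were fitted alone, and with the choroid plexus level as a covariate 3 were higher and 3 lower. This covariate is the mean log2 level of the same 18 genes, so its effect on their own calls was largely set in advance. Of the genes named as called above, Abcb1a, Bdnf, Cd59a, Fabp5, Grin2c, Irak2, Lpl, Mrc1, Nr3c1, Nr3c2, Ptgs1, Ptprz1, Rela and Tlr4 were not called with that covariate, and Abcb1a, Grin2c, Lpl and Trem2 were not when SL and SS were fitted alone. The list summed to 947, 935 and 683 FPKM in SL, against 2831, 2377 and 2610 FPKM in SS, to 2417 to 3483 FPKM in LL and to 41.3 to 1244 FPKM in LS. Sostdc1, a secreted BMP antagonist of that epithelium, was at 5.22, 4.63 and 3.64 FPKM in the SL animals, against 20.8, 16.3 and 16.6 FPKM in the SS animals (log2 difference -1.88, SE 0.37, limma adjusted p = 0.0065). Msx1 was at 1.72, 1.78 and 1.7 FPKM in the SL animals, against 9.12, 6.51 and 6.64 FPKM in the SS animals (log2 difference -1.81, SE 0.28, limma adjusted p = 0.00118). Each SL animal was far below each SS animal for both. How much choroid plexus was dissected with each hippocampus is not given, and its part in these values cannot be told apart from a change in the epithelium.

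Between SL and SS, neighbouring tissue lists leaned the same way. Of 17 tested meningeal fibroblast genes 7 fell and 1 rose (3 fell without SS animal 1 or SL animal 2, 2 without SS animal 3, and 1 with the choroid plexus covariate). Myoc was at 1.96, 1.25 and 1.23 FPKM in the SL animals, against 10.7, 10.03 and 10.4 FPKM in the SS animals (log2 difference -2.48, SE 0.20, limma adjusted p = 6.71e-06). Of 13 tested cilia and ependymal genes 5 fell and 0 rose, and with that covariate 0 fell. Of 8 red cell transcripts 6 fell (5 with it). Hba-a1 was at 60.9, 37.2 and 63 FPKM in the SL animals, against 156, 150.4 and 131 FPKM in the SS animals (log2 difference -1.47, SE 0.24, limma adjusted p = 0.00182). Hbb-bt was at 3.22, 2.29 and 3.07 FPKM in the SL animals, against 13.4, 15.5 and 12.5 FPKM in the SS animals (log2 difference -2.09, SE 0.19, limma adjusted p = 1.51e-05). Globin copies are near-identical so that their split is uncertain. The SL and SS values of these 3 genes did not overlap. By list medians, as log2 differences from the SS mean, choroid plexus and red cell transcripts were lower in the same 3 animals. The meningeal median of SL animal 1, -0.19, lay within the SS range of -0.24 to 0.12. In the other groups the lists came apart. Red cell medians were -0.40, -1.08 and -0.78 in LL and -0.14, -0.03 and 0.04 in LS. Choroid plexus medians were -0.14, -0.26 and 0.32 in LL and -0.72, -2.54 and -2.72 in LS. With the choroid plexus covariate 4 barrier genes fell in place of 5, 1 gene of pericytes and smooth muscle in place of 3, and 0 border macrophage genes in place of 3.

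Of RNA other than protein-coding messages, 13 of 583 tested lincRNAs rose and 13 fell, and 11 of 608 antisense transcripts rose and 8 fell. H19, an imprinted long RNA, was at 14.1, 7.72 and 12.1 FPKM in the SL animals, against 1.05, 0.73 and 0.726 FPKM in the SS animals (log2 difference 3.11, SE 0.19, limma adjusted p = 6.24e-07). AW112010, a long RNA of activated immune cells, was at 6.31, 3.03 and 3.24 FPKM in the SL animals, against 0.153, 0.301 and 0 FPKM in the SS animals (log2 difference 2.81, SE 0.28, limma adjusted p = 4.22e-05). The lincRNA 2900040C04Rik was at 1.03, 1.02 and 1.21 FPKM in the SL animals, against 16.1, 13.6 and 14 FPKM in the SS animals (log2 difference -3.25, SE 0.70, limma adjusted p = 0.0108). The first pair lay above SS in every SL animal, and 2900040C04Rik lay below it in every one. Whether strand was used in counting is not given, so antisense transcripts cannot be told apart from their partners.

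Among transcription factor genes, 6 of 7 tested IRF genes, 5 of 6 STAT genes, 5 of 10 Rel-domain genes and 2 of 3 C/EBP genes rose, beside 71 of all 984 factors that rose and 24 that fell. Only 11 of 453 tested zinc finger genes of the C2H2 type rose, and 5 fell. Cebpd, which raises acute-phase genes, was at 14.7, 11.7 and 10.4 FPKM in the SL animals, against 2.23, 3.05 and 2.6 FPKM in the SS animals (log2 difference 2.03, SE 0.12, limma adjusted p = 7.22e-07) and Cebpb rose by 1.70.

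The 3 SL animals differed in size of response. Over the genes that rose, the median difference from the SS mean was 0.864, 0.760 and 0.707 in SL animals 1, 2 and 3, and SL animal 1 had the highest value for 743 of the 1249 while SL animal 3 had the lowest for 700. Since the genes were chosen on these animals, these values are descriptions. The order was not the same in all lists. The acute-phase list had medians of 4.20, 3.76 and 3.20 in animals 1, 2 and 3 and the neutrophil list 2.87, 2.34 and 2.24, while interferon-stimulated genes had 1.38, 1.66 and 1.48 and complement genes 1.18, 1.58 and 1.61. Immediate early genes were at 0.10 in animal 1, and at 0.57 and 0.59 in animals 2 and 3.

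**Figure D3:**
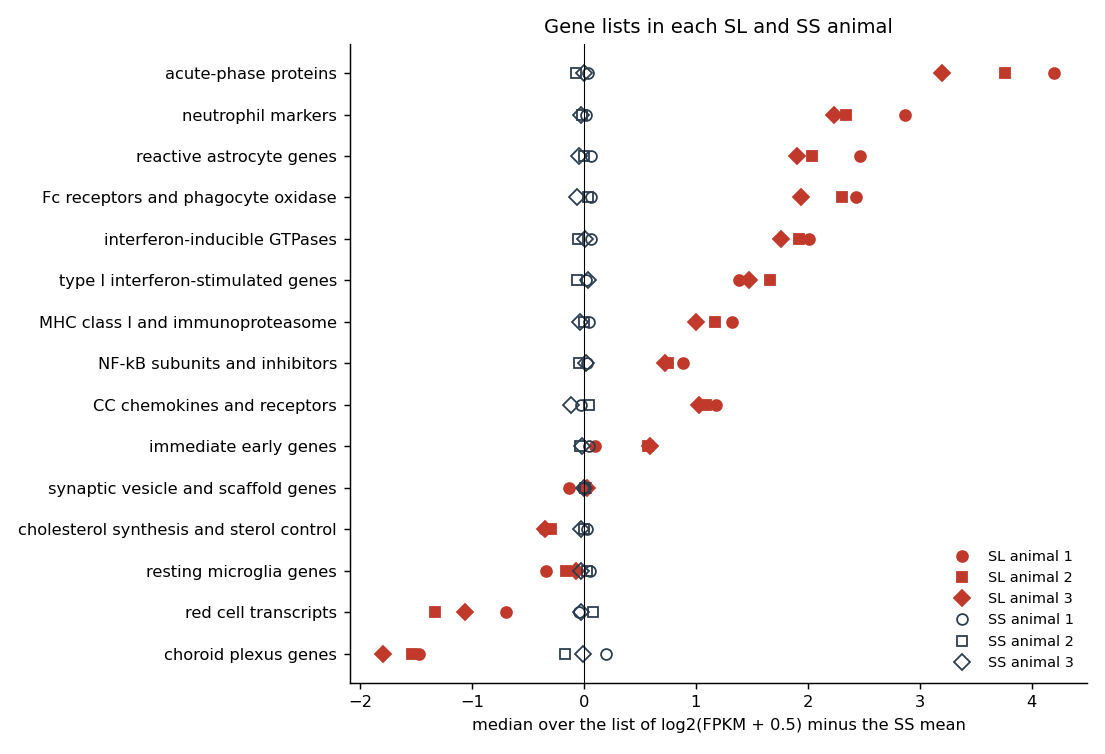
Median log2 difference from the SS mean over the tested members of 15 lists (x axis) for each SL animal (filled) and each SS animal (open). Animal 1 is the highest of the SL animals for acute-phase, neutrophil and reactive astrocyte genes and the lowest for interferon-stimulated and immediate early genes.

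**Figure D4:**
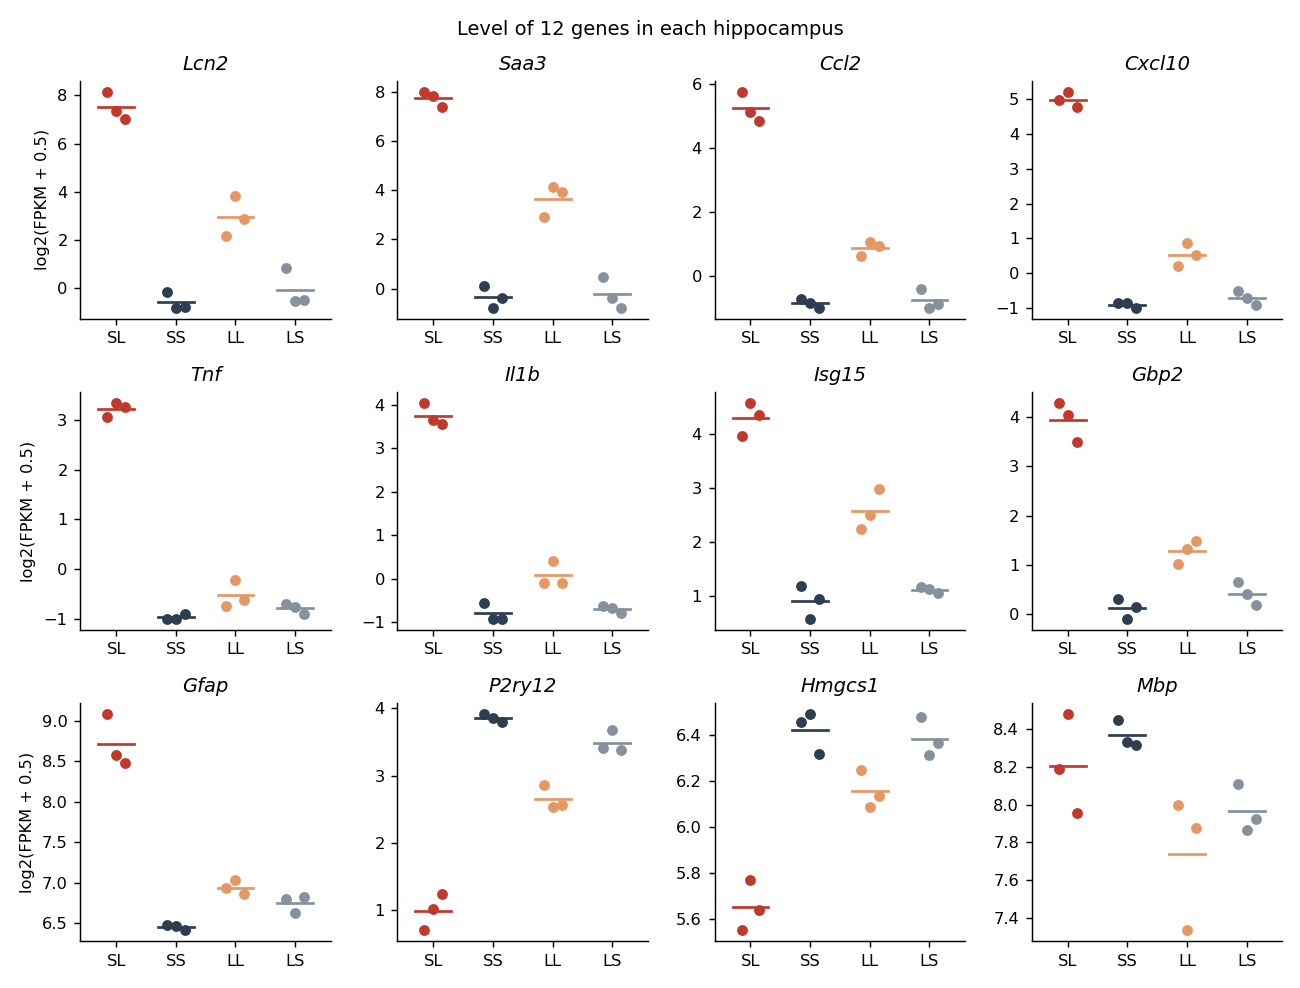
Level of 12 genes in each animal as log2(FPKM + 0.5) (y axis, its own range in each panel), with 1 point per animal, a bar at the group mean and groups in the order SL, SS, LL and LS. Lcn2, Saa3, Ccl2, Cxcl10, Tnf, Il1b, Isg15, Gbp2 and Gfap lie higher in SL than in SS without overlap, P2ry12 and Hmgcs1 lie lower, and Mbp overlaps.

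The same day-14 injection was also given to pups that had met LPS on day 3, which allows the response SL minus SS to be set against LL minus LS in 1 model. At an adjusted p under 0.05 the response was more positive in pups given saline on day 3 for 564 genes (3.19% of those tested) and more negative for 378 (2.14%), 5.33% in all. Tnf was at 0.0982, 0.357 and 0.155 FPKM in LL, against 0.12, 0.0909 and 0.0331 FPKM in LS, a response of 0.26 on the log2 scale beside 4.19 for SL minus SS (difference 3.93, limma adjusted p = 5.45e-06). Tnf passed the filter only through SL, so its positive difference was largely set by the filter and is a description. Cxcl10 was at 0.661, 1.32 and 0.939 FPKM in LL, against 0.197, 0.11 and 0.0241 FPKM in LS, 1.26 beside 5.90 (difference 4.64, limma adjusted p = 5.45e-06). Lcn2 was at 4.02, 13.6 and 6.84 FPKM in LL, against 1.29, 0.189 and 0.207 FPKM in LS, 3.02 beside 8.10 (difference 5.08, limma adjusted p = 0.00101), a call lost with limma voom. The LL values of all 3 genes were below every SL value.

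Astrocyte and microglial genes showed the same ordering of the responses. Gfap was at 122, 130.3 and 116 FPKM in LL, against 111, 98.3 and 113 FPKM in LS, 0.19 beside 2.26 (difference 2.07, limma adjusted p = 7.34e-05). P2ry12 was at 6.76, 5.26 and 5.4 FPKM in LL, against 10.2, 12.2 and 9.94 FPKM in LS, -0.84 beside -2.87 (difference -2.03, limma adjusted p = 0.000119). Aif1 was at 9.14, 8.19 and 9.97 FPKM in LL, against 3.47, 3.99 and 3.72 FPKM in LS, and its difference of responses, 0.46, was not called (limma adjusted p = 0.129). LS animals 2 and 3 had little choroid plexus RNA, and with the choroid plexus level as a covariate 48 genes were more positive and 13 more negative. The SE of the difference was larger with this covariate, 0.45 against 0.21 for Tnf, 0.38 against 0.18 for Gfap and 0.40 against 0.19 for P2ry12. Fewer calls there do not by themselves mean smaller differences. With the covariate Tnf and Cxcl10 were called, while Gfap (difference 2.19) and P2ry12 (difference -2.26) were not, each at a limma adjusted p of 0.0504. Without LS animals 2 and 3 both were called, at 2.12 (limma adjusted p = 0.0026) for Gfap and -2.1 (limma adjusted p = 0.00281) for P2ry12.

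Lists differed in how many members carried this difference. It was positive for 14 of 15 acute-phase genes, 16 of 17 neutrophil genes, 27 of 36 reactive astrocyte genes, 12 of 21 NF-kB genes and 8 of 17 CC chemokine genes, and negative for 0 of these. For members that passed the filter only through SL, such as Orm1 and Orm2, a positive difference was largely set by the filter. The shares of lists that hold such members are therefore descriptions. It was positive for 23 of 47 interferon-stimulated genes and for 0 of 9 class II genes. It was negative for 8 of 21 resting microglia genes, with 2 positive, and for 10 of 33 sterol genes, with 1 positive. All 18 tested choroid plexus genes carried a negative difference, beside the low values of that tissue's genes in LS.

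**Figure D5:**
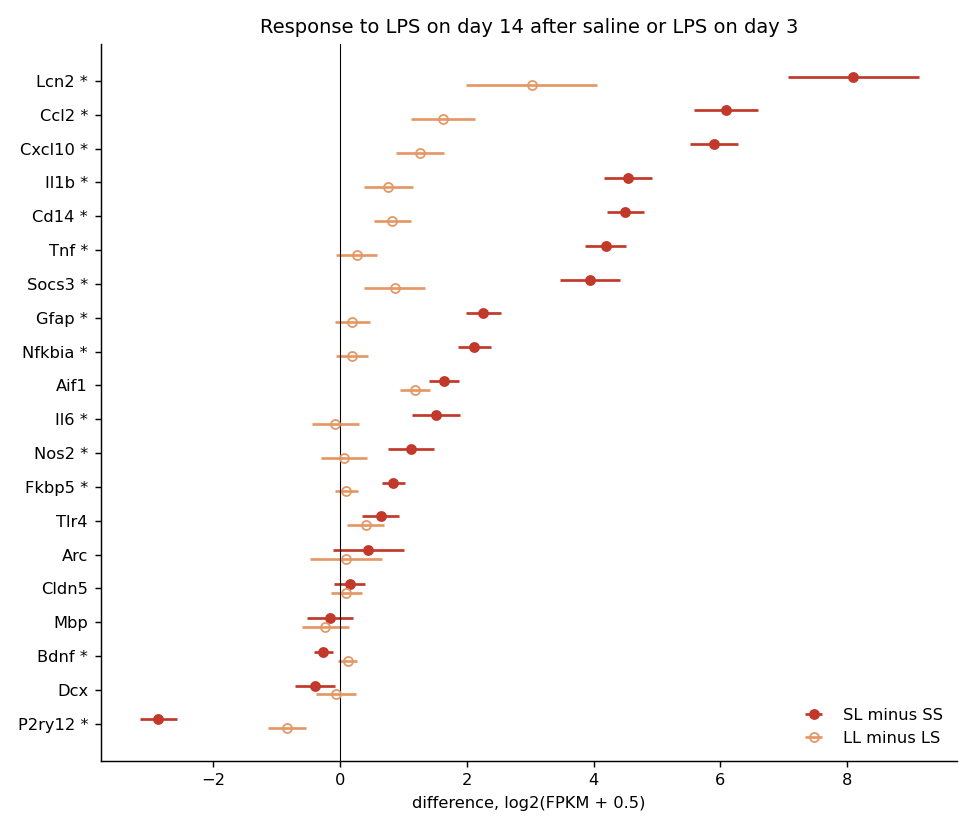
Log2 response to the day-14 injection of 20 genes, SL minus SS (filled) and LL minus LS (open), as the difference in log2(FPKM + 0.5) with 95% confidence intervals from limma (x axis), and an asterisk where the difference between the responses was called. The intervals lie apart for Tnf, Cxcl10, Il1b and Cd14, and overlap for Tlr4, Cldn5, Arc, Dcx and Mbp.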

How the data were processed

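PolyA RNA of 12 hippocampi (4 groups of 3) was sequenced. Per the submitters' processing notes, the tools were HISAT2 2.0.5 and featureCounts 1.5.0-p3 with the genome build mm10. How strand and multi-mapping reads were handled is not given. The deposited values are FPKM computed by the authors, fragments scaled to gene length and to a divisor per library, whose derivation is not given. They are whole multiples of 1 fragment: 100% of 309337 values above 0 came out whole within 0.01. The fragments recovered gave the depths (16979666 to 24105022 per library) and a limma voom fit, which called 1288 genes higher and 748 lower. The FPKM divisor differed from the depth so recovered by -1.96% (SL animal 2) to 3.13% (LL animal 1).

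The 17687 genes that reached 0.5 FPKM in 3 or more libraries entered the test on log2(FPKM + 0.5) with limma 3.58.1 (trend option, R 4.3.3). The fit took all 12 libraries with 1 mean per group, SL minus SS and the difference of that response from LL minus LS were contrasts, and p-values were adjusted by Benjamini-Hochberg over all genes tested, with 0.05 as threshold. The procedure was tested on simulated data. A ratio against 1 to 3 SS fragments has a 95% interval for counting error only, and genes absent from SS have a lower bound against 3 fragments per library. With 3 animals a side, the smallest p an exact permutation test allows is 0.1.

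Members, lists and the rule for naming genes were chosen with earlier results of these data known. Genes were named by a rule: the 15 largest rises and 15 largest falls among called protein-coding genes with a mean of at least 1 FPKM and no overlap, the 8 that gained and the 8 that lost most FPKM, 5 non-coding genes in each direction, up to 8 called members per list, and a fixed set (Tnf to Mbp). Called genes outside it were chosen after their values were seen: Apln, Aplnr, Aspg, B2m, C1qa, Cd44, Cd59a, Clec4e, Cxcl12, Ednrb, Fabp5, Il6st, Jam2, Kdr, Lpl, Mcl1, Nr3c1, Nr3c2, Rela, S1pr3, Slc38a3, Slc6a11, Slc7a10, Sqle, Stat2, Vcam1 and Vim. Alternatives covered scaling, filters, pseudocounts, voom, covariates, the replicate block and each library left out. Some genes are not reported here.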

Additional observations from a re-analysis of the deposited data

Results flagged for a closer look

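For 14 genes of a fixed set the response to the day-14 injection differed between pups given saline on day 3 (SL minus SS) and pups given LPS on day 3 (LL minus LS), by the limma test of the difference itself at an adjusted p under 0.05. Tlr4, Aif1, Cldn5, Arc, Dcx and Mbp of the set were tested and not called. Over all genes tested 5.33% were called. The set was chosen with earlier results of these data known, so its share is a description. On the log2 scale the difference was 5.08 for Lcn2, 4.46 for Ccl2, 4.64 for Cxcl10, 3.78 for Il1b, 3.68 for Cd14, 3.93 for Tnf, 3.08 for Socs3, 2.07 for Gfap, 1.93 for Nfkbia, 1.59 for Il6, 1.06 for Nos2, 0.74 for Fkbp5, -0.38 for Bdnf and -2.03 for P2ry12. The calls for Tnf, Il1b, Cxcl10 and Cd14 held in every alternative run. Tnf and Il1b passed the filter on low values only through SL, so a positive difference was largely set by the filter for both. With limma voom Ccl2 and Lcn2 were not called, and with the choroid plexus level as a covariate Il6, Nos2, Socs3, Nfkbia, Gfap, P2ry12, Fkbp5 and Bdnf were not. Nos2 was also not called without SS animal 3, LS animal 2, LS animal 3, LL animal 1 or LL animal 2. The call for Bdnf was also lost without the filter on low values, with the replicate block, with the Y-linked covariate, and without any 1 SS or SL animal, LS animal 2, LS animal 3, LL animal 2 or LL animal 3. LS animals 2 and 3 carried little choroid plexus RNA. Without both of them Nos2 and Bdnf were not called and the other 12 genes were.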

How the results depend on the processing

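Centring on the library median moved the median of all genes to -0.059 and gave 1091 higher and 1164 lower (48.4% of calls higher, against 65.2% without it). Quantile normalization moved it to -0.044, with 53.4% higher. With only the SL and SS libraries, 969 rose and 421 fell, and with the choroid plexus level as a covariate 1113 genes were called, 809 higher and 304 lower. For the difference of responses that covariate left 61 calls, 48 positive and 13 negative, and without LS animals 2 and 3 there were 421, with 287 positive and 134 negative. Leaving out 1 library gave 1539 to 1996 calls for SL against SS (1063 to 1276 higher, 450 to 720 lower) and 722 to 1015 for the difference of responses (461 to 608 positive, 259 to 407 negative). Whether replicate numbers pair animals is not given. Deviations of same-numbered SL and SS animals correlated at -0.0418, 0.00546 and 0.00683, and those of unlike-numbered animals at -0.0348 to 0.0296. Such values over all genes cannot exclude a litter or batch shared by same-numbered animals. With the replicate number as a block, all 12 libraries gave 1250 higher and 661 lower, and SL and SS alone gave 962 calls, 710 higher and 252 lower. Mbp, not called, was at -0.16, and at 0.050 with the choroid plexus covariate. The choroid plexus covariate also widened the SE of the difference of responses, to 0.45 from 0.21 for Tnf. The cause of these shifts was not tested. Of the named genes' values under alternatives, 10323 kept direction and call, 644 lost the call, 3 gained it and 1 turned direction. Depth limits genes with a few fragments, for which a fold is a bound or has a wide interval.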
